A study of Mus musculus with 24 samples.

Results

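The genes described here are 42 mouse genes for the folding and handling of proteins, taken by symbol from a list of cytosolic chaperones and HSP90 cochaperones. They are 42 of 37229 gene symbols in the deposited count table, and all 42 were among the 15875 genes that passed the filter on low counts. The list held 8 subunits of the CCT ring, 6 subunits of prefoldin, the HSP90 pair Hsp90aa1 and Hsp90ab1, and 8 genes of the HSP70 and HSP110 family and its exchange factors. It also held 5 J-domain proteins, 9 cochaperones and immunophilins, the small heat shock protein Hspb1 and the transcription factor Hsf1. The last 2, Hspd1 and Hspe1, are not cytosolic: their proteins form the chaperonin of the mitochondrial matrix.

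RNA of 24 single embryos of the ICR mouse strain, made by in vitro fertilization, was sequenced after Smart-seq2, which amplifies full-length cDNA from polyadenylated RNA. All groups were cultured in 6% CO2 and 5% O2. The intact controls, which were never parted and grew in parallel, were 4 embryos at the 8-cell stage, 5 morulae and 3 blastocysts. For the split groups, late two-cell embryos were placed in G-PGD biopsy medium, their blastomeres were parted by micromanipulation, and each blastomere grew on its own in a modified sodium hyaluronate gel. Splitting, biopsy medium and gel therefore came together, and their parts cannot be told apart. The split embryos were 6 morulae and 6 blastocysts, or 3 pairs of sisters per stage. Counts were summed over each pair, which is 1 unit in every test (n = 3). The labels gave no batch, litter, sex or age in hours, and did not say whether the embryos of a group came from separate matings, so a p-value here reflects only how far these units spread.

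CCT, also called TRiC, is a double ring of related subunits that folds actin, tubulin and other cytosolic proteins, and prefoldin hands unfolded chains to it. HSP70 binds exposed stretches of new or damaged proteins with the help of J-domain proteins and exchange factors, and passes some clients to HSP90, whose cycle is steered by cochaperones such as Stip1, Ptges3, Ahsa1 and Cdc37. The heat shock factor HSF1 raises many of these genes under stress, and Hspa1a and Hspa1b are among the first genes transcribed when the mouse embryo activates its genome.

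Counted reads per embryo ran from 26.3 to 38.5 M at the 8-cell stage, 13.9 to 19 M in control morulae, 14.1 to 18.9 M in split morulae, 11.3 to 12.7 M in control blastocysts and 13.4 to 25.2 M in split blastocysts. The library scaling factors differed with stage, at 0.883 to 0.937 in control morulae, 0.97 to 1.03 in split morulae, 1.17 to 1.31 in control blastocysts and 1.04 to 1.09 in split blastocysts. Levels are normalised counts (CPM), in which the count of a gene was divided by the library's counted reads times its scaling factor. A factor above 1, as in control blastocysts, lowers CPM against scaling by depth alone, and a factor below 1 raises it. Lineage markers differed between control and split blastocysts, in both directions. The 8 trophectoderm markers summed to 1799 to 2760 CPM in control and 4682 to 6025 CPM in split blastocysts. Krt8 (471 to 812 against 1621 to 1905 CPM) and Krt18 (588 to 1165 against 1923 to 3193 CPM) made up most of this, Cdx2 was also above the controls, Eomes was below them and the other 4 overlapped. The 6 inner cell mass markers gave 294.9 to 477.4 CPM and 359.1 to 492 CPM, with Pou5f1 above and Sox2 below the controls without overlap. The primitive endoderm markers summed to 133 to 196 CPM in control and 71.86 to 103.3 CPM in split blastocysts. Gata6 made up most of this and was below the controls, while the other 3 with a level overlapped. The part of these lineage differences in the chaperone differences was not tested. Of 10 cumulus and granulosa markers, 6 to 9 were at 0 in every unit of a group and the sum never passed 1.043 CPM. Mitochondrially encoded transcripts took 3.47 to 4.85% of counts in control blastocysts and 1.43 to 2.08% in split blastocysts.

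Split morula pair 3 stood apart from the other split morulae. It held 22.5 CPM of Nanog against 345 and 378 CPM in pairs 1 and 2, 0 of Cdx2 against 24.6 and 15.4 CPM, 158 CPM of Krt8 against 655 and 496 CPM, 5830 CPM of Actb against 23310 and 19910 CPM, and 762 CPM of Dnajb9 against 176 and 205 CPM. Control morulae held 254.5 to 389 CPM of Nanog, 0.0663 to 3.66 CPM of Cdx2, 135 to 270.5 CPM of Krt8, 11780 to 17640 CPM of Actb and 241 to 368 CPM of Dnajb9. These 5 genes were chosen after their values were seen. Pair 3 thus lay inside the control range for Krt8, below it for Nanog and Actb and above it for Dnajb9. For Cdx2 its 0 was next to the lowest control morula at 0.0663 CPM, near the floor, and pairs 1 and 2 lay above the control range. Without pair 3, split against control morulae gave 0 called members, split morula to split blastocyst 8, and the difference between split effects 9. In whole embryos, fewer cells of a type and less RNA per cell cannot be told apart.

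The 42 genes took 2.53 to 2.77% of counted reads in 8-cell embryos, 3.63 to 4.12% in control morulae and 2.94 to 3.11% in control blastocysts. Split morula pairs held 3.34 to 4.07% and split blastocyst pairs 3.43 to 3.57%, so control and split blastocysts did not overlap. In levels per transcript length (TPM), Hsp90aa1 stood first in the later 4 groups and Hsp90ab1 in the 8-cell embryos, while Hspa1a and Hspa1b stood last in all 5 groups.

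Between the 8-cell stage and the morula, 14 members rose and 6 fell (edgeR's quasi-likelihood test, Benjamini-Hochberg adjusted p under 0.05). These are 33.3% and 14.3% of the members, against 14.3% of all tested genes that rose and 10.7% that fell. Their median log2 change was 0.16, beside 0.09 over all genes. From control morula to control blastocyst 1 member rose and 18 fell, or 42.9% of the members, where 3.12% of all genes rose and 7.46% fell. The members' median was -0.59, beside 0.11 over all genes. When levels were taken as TPM instead, 6 members rose and 14 fell, and the members' median was -0.05, beside 0.37 over all genes.

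Split morulae differed from control morulae in 1 member, Ptges3, which was lower, and no member was higher. In this comparison 0.0693% of all genes were higher and 0.0567% lower. An unadjusted p under 0.05 in edgeR was found for 18 of the 42 members and for 2377 of all 15875 genes. DESeq2 called 8 members there, 4 higher and 4 lower, but it also called 832 genes in all, where edgeR called 20. At the blastocyst stage 12 members (28.6%) were higher in split embryos and 3 (7.14%) lower, where 3.42% of all genes were higher and 1.32% lower. The members' median was 0.45, beside 0 over all genes. Both the stage comparison of controls and the split comparison at the blastocyst stage use the same 3 control blastocysts, so the sets of calls are not independent of each other.

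From split morula to split blastocyst, a comparison that uses no control embryo, 2 members rose and 6 fell, where 1.22% of all genes rose and 2.95% fell. The split effect itself was tested for a difference between stages (split against control at the blastocyst minus the same at the morula): it was larger at the blastocyst for 9 members and smaller for 1, where these shares over all genes were 1.37% and 0.265%. The members' median difference was 0.38, beside 0.05. Larger here means a higher log2 value at the blastocyst, also where split morulae were below control morulae. These calls rest on the same control blastocysts again, so they are not independent of the calls in the other comparisons. On the TPM scale this last test called 3 members, Cct8 and Ppia larger and Hsph1 smaller. In no comparison were 13 members called: Cct2, Cct3, Cct6a, Pfdn1, Pfdn4, Vbp1, Hspa4, Hspa1a, Hspa1b, Bag3, Hspb1, Hsf1 and Hspe1. The share of all tested genes called in no comparison was not counted, so these are given as a list only. The plot of fold changes by member shows these calls for 3 of the comparisons.

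**Figure D1:**
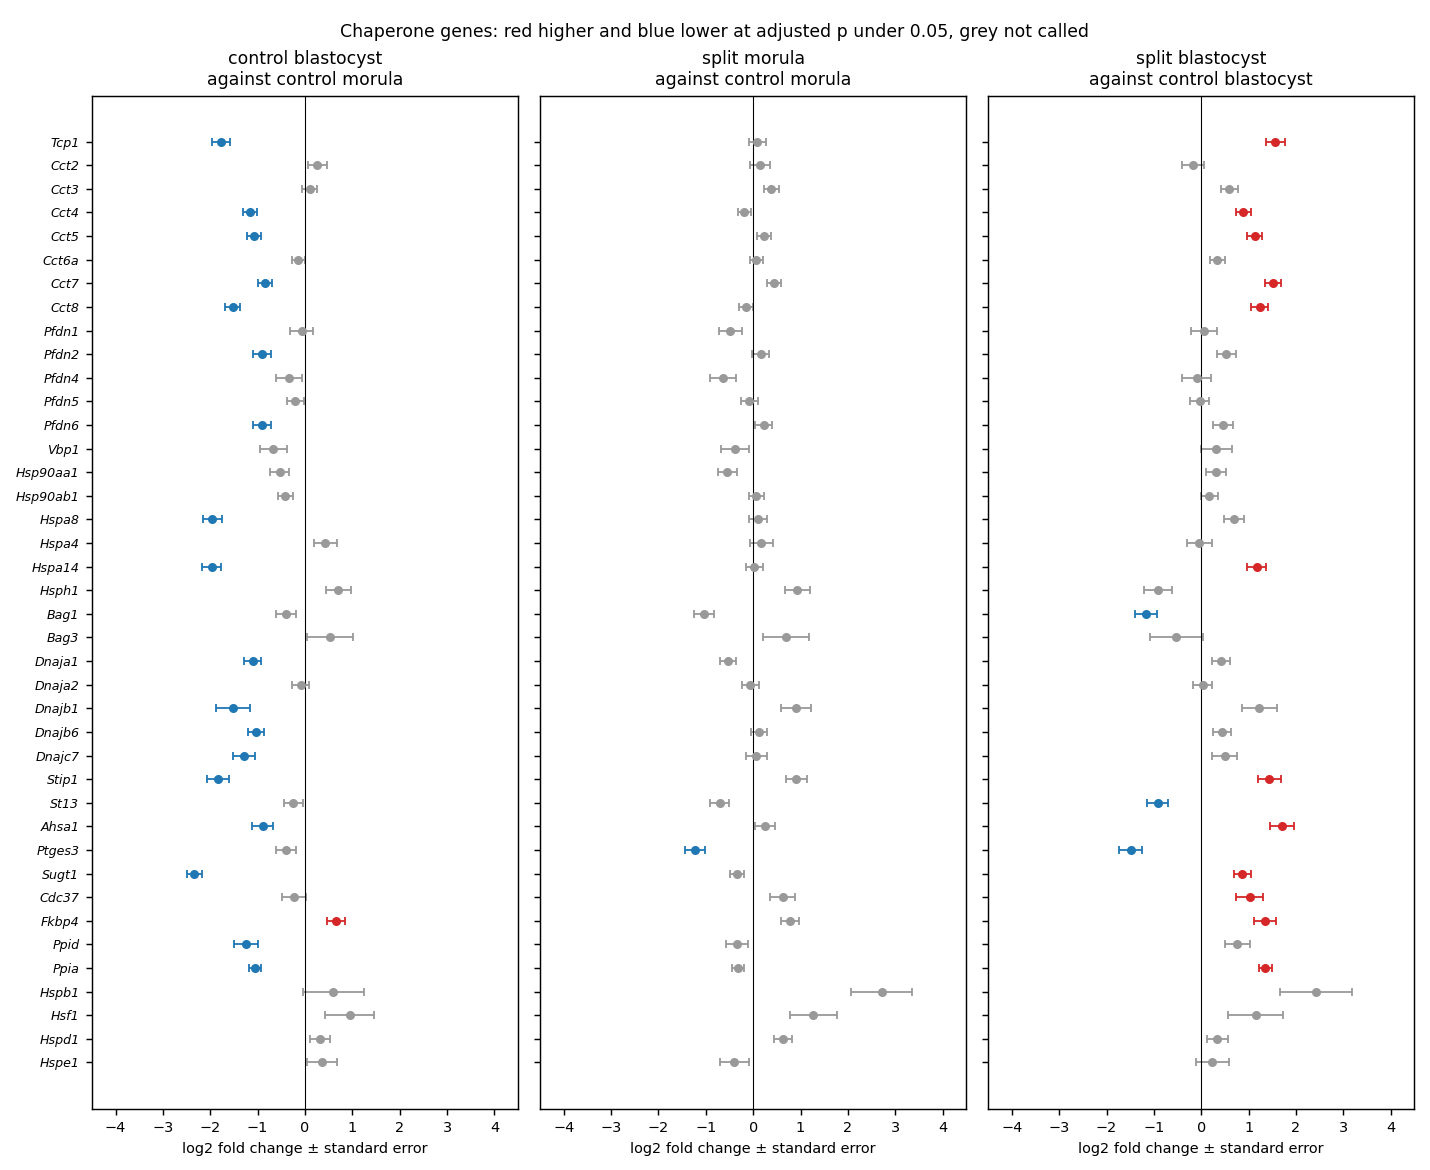
Log2 fold change ± standard error of 40 members in control blastocysts against control morulae, split against control morulae and split against control blastocysts, with red for higher, blue for lower and grey for not called at an adjusted p under 0.05 (Hspa1a and Hspa1b, near 0 counts, are left out). Of all 42 members, 18 are lower in the left panel, 1 is called in the middle and 12 are higher in the right.

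The CCT ring divided into subunits that fell between control morula and control blastocyst and subunits that were not called. Tcp1, Cct4, Cct5, Cct7 and Cct8 fell (5 of 8), where 7.46% of all genes fell. The same 5 were higher in split than in control blastocysts, where 3.42% of all genes were higher. On the TPM scale 4 of the falls were called, without that of Cct7. Cct2, Cct3 and Cct6a were not called in either comparison by edgeR's fit of the 5 groups. On the TPM scale, though, Cct2 and Cct3 rose between the control stages (by 0.73 and 0.57 against the 0.37 of all genes). Cct3 was called higher in split blastocysts by DESeq2 (0.55) and when only the blastocyst groups were fitted. The promoter sequences of the ring genes are shown because these genes work in 1 complex and yet moved in part together. Each line gives the 100 bases before the annotated start of transcription, 5′ to 3′ on the gene's strand, from RefSeq on GRCm38.p6, with the GC box GGGCGG and the CCAAT box in capitals on either strand. The first 4 genes fell in control blastocysts and the last 3 did not pass.
Tcp1, chr17:12916229-12916328, plus strand: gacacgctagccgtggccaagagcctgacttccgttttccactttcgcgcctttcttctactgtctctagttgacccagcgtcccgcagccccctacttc
Cct5, chr15:31601847-31601946, minus strand: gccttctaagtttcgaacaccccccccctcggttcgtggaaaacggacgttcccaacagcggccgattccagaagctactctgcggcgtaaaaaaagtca
Cct7, chr6:85451405-85451504, plus strand: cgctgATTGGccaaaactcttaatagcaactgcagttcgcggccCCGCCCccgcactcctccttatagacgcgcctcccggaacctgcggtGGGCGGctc
Cct8, chr16:87495870-87495969, minus strand: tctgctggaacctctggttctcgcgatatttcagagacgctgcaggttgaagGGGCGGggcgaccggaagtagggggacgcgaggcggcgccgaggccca
Cct2, chr10:117063853-117063952, minus strand: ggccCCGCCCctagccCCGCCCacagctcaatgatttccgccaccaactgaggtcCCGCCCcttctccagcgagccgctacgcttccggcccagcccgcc
Cct3, chr3:88297035-88297134, plus strand: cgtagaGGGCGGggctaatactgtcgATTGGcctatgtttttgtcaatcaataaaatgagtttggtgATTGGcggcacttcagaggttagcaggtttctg
Cct6a, chr5:129787256-129787355, plus strand: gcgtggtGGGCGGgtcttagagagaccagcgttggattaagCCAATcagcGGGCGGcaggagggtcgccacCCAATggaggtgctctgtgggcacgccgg

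Over the full windows of 250 bases before to 50 after the start, the GC box was found in all 7 ring genes with a window, moving or not. It was in 30 of the 34 members with a window and in 38.2% of all 27025 RefSeq genes. A gene was counted if any of its windows matched. The CCAAT box was in 4 of the 7 (Tcp1, Cct7, Cct3 and Cct6a) and in 41.1% of all genes, so both motifs occur in genes that moved and in genes that did not pass. Of the printed stretches, those of Tcp1 and Cct5 hold neither motif. These matches are a description of letters only.

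Tcp1, the first subunit of the ring, stood at 518, 567, 641 and 599.6 CPM in the 8-cell embryos and at 579, 559.7, 696, 734 and 621 CPM in control morulae. The control blastocysts held 153, 232 and 177 CPM, and the split blastocyst pairs 591, 517 and 553 CPM. Split morula pairs gave 558, 578 and 899.6 CPM. All control blastocysts therefore lay below every unit of the other 4 groups, which overlapped with each other. Tcp1 fell by 1.77 ± 0.19 (log2, ± standard error) between the control stages (adjusted p = 1.55e-06) and was higher by 1.56 ± 0.2 in split blastocysts (adjusted p = 7.47e-05).

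Cct8 repeated this order, with 1078, 1319, 1223 and 918 CPM at the 8-cell stage, 1291, 1281, 1428, 1408 and 1437 CPM in control morulae and 1206, 1013 and 1474 CPM in split morulae. Control blastocysts fell to 458, 549 and 419 CPM, while split blastocysts stayed at 1155, 1104 and 1084 CPM, with no overlap between these 2 groups. The log2 change was -1.53 ± 0.16 between the control stages (adjusted p = 9.32e-07) and 1.23 ± 0.17 for split against control blastocysts (adjusted p = 0.000123). Cct4 stood at 456, 481 and 469 CPM in control blastocysts and 948, 825 and 826 CPM in split ones, a difference of 0.89 ± 0.16 (adjusted p = 0.00181). Its fall between the control stages was -1.17 ± 0.15 (adjusted p = 1.3e-05).

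Cct5 and Cct7 had already risen to the morula, by 0.52 ± 0.13 (adjusted p = 0.00508) and 0.45 ± 0.13 (adjusted p = 0.0167). The Cct7 rise lost its call without the second 8-cell embryo (0.34, adjusted p = 0.0686), with no count filter and with the compared groups alone. Cct7 then stood at 623, 567, 637, 616 and 673 CPM in control morulae, 837, 779 and 921 CPM in split morulae, 318, 342 and 379 CPM in control blastocysts and 955, 989.6 and 1044 CPM in split blastocysts. Split units lay above control units at both stages without overlap, but edgeR called only the blastocyst difference (1.52 ± 0.17, adjusted p = 1.47e-05, against 0.44 ± 0.14, adjusted p = 0.211 at the morula). DESeq2 called Cct7 higher in split morulae as well. Cct5 held 503, 469.5 and 445 CPM in control and 1068, 1007 and 1030 CPM in split blastocysts, a difference of 1.13 ± 0.16 (adjusted p = 0.000155), after a fall of 1.08 ± 0.15 between the control stages (adjusted p = 2.3e-05).

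The 3 uncalled subunits showed other orders. Cct2 stood at 377, 458, 430.2, 338 and 448 CPM in control morulae, 492, 521 and 465 CPM in control blastocysts and 415, 469.6 and 425 CPM in split blastocysts, so that all control blastocysts were above all control morulae. Cct3 was at 306, 348 and 317 CPM in control and 466, 480.5 and 517 CPM in split blastocysts, which did not overlap (0.59 ± 0.18, adjusted p = 0.0692). Cct6a stayed between 518 and 783 CPM in all 18 units. The plot of ring subunits by group shows the 5 and the 3 side by side.

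**Figure D2:**
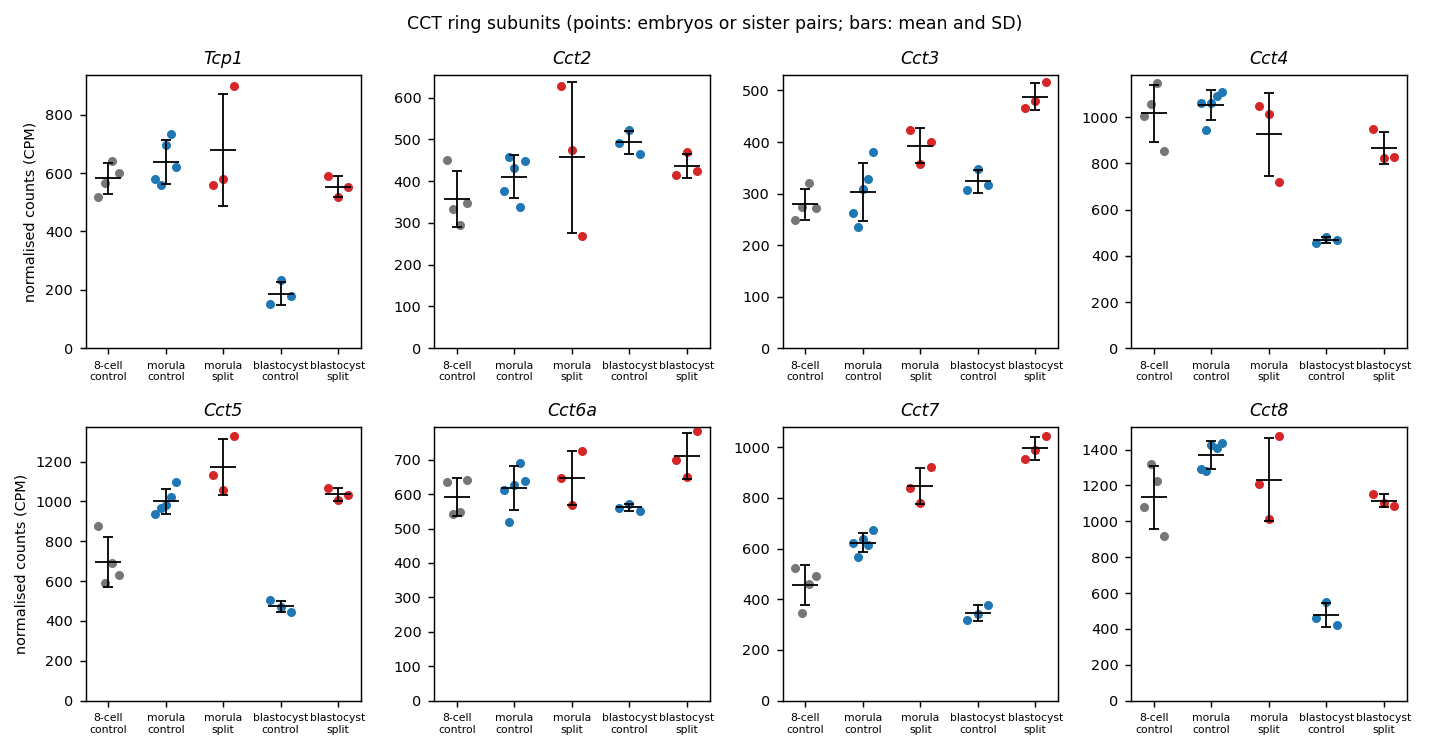
Normalised counts (CPM, linear axis from 0) of the 8 CCT ring subunits in 8-cell controls, morula and blastocyst controls (blue) and split embryos (red), with points for embryos or sister pairs and bars for mean and SD. In Tcp1, Cct4, Cct5, Cct7 and Cct8 the 3 control blastocysts lie below all split blastocyst pairs, and in Tcp1 at 153 to 232 CPM below every unit of the other groups.

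In split embryos edgeR called no ring subunit between morula and blastocyst, while limma-voom on single embryos called Cct7 higher. The log2 changes of the ring subunits ran from -0.29 to 0.31, and none had an unadjusted p under 0.05 in edgeR. The split effect was larger at the blastocyst than at the morula for the same 5 subunits, by 1.47 ± 0.27 for Tcp1 (adjusted p = 0.0069), 1.38 ± 0.22 for Cct8 (adjusted p = 0.00358), 1.08 ± 0.22 for Cct7 (adjusted p = 0.0123), 1.07 ± 0.22 for Cct4 (adjusted p = 0.0119) and 0.9 ± 0.21 for Cct5 (adjusted p = 0.0302). The Cct5 call ended in 10 of 14 refits that left out 1 unit (all but control morulae 1, 2 and 3 and split morula pair 3, adjusted p up to 0.095), with no count filter and with a replicate block, and the Cct7 call without control blastocyst 1 (0.0542). Of these 5, only Cct8 was called on the TPM scale. This test equals the change between split stages minus the change between control stages. It uses the same 3 control blastocysts as the falls and split differences above, so it is not an independent result. Over all genes 1.37% were called larger.

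Levels per transcript length show how unequal the ring genes were. Summed over the 8 subunits, the level was 3020 ± 58 TPM (SD) at the 8-cell stage, 3750 ± 279 TPM in control morulae, 4410 ± 368 TPM in split morulae, 2890 ± 45.8 TPM in control blastocysts and 4300 ± 133 TPM in split blastocysts. The most abundant subunit exceeded the least by 7.8 to 11.2 times in control morulae, 4.42 to 6.33 times in control blastocysts and 4.52 to 5.28 times in split blastocysts. Cct8 led in 8-cell embryos and control morulae, Cct5 in both split groups and Cct2 in control blastocysts. Cct3 was lowest in every group but the control blastocysts, where Tcp1 took its place. Across the 18 units, which share stages and normalisation, the log2 levels of Tcp1 and Cct8 had a Pearson r of 0.96, Cct5 and Cct7 one of 0.89, and Tcp1 and Cct2 one of -0.51.

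**Figure D3:**
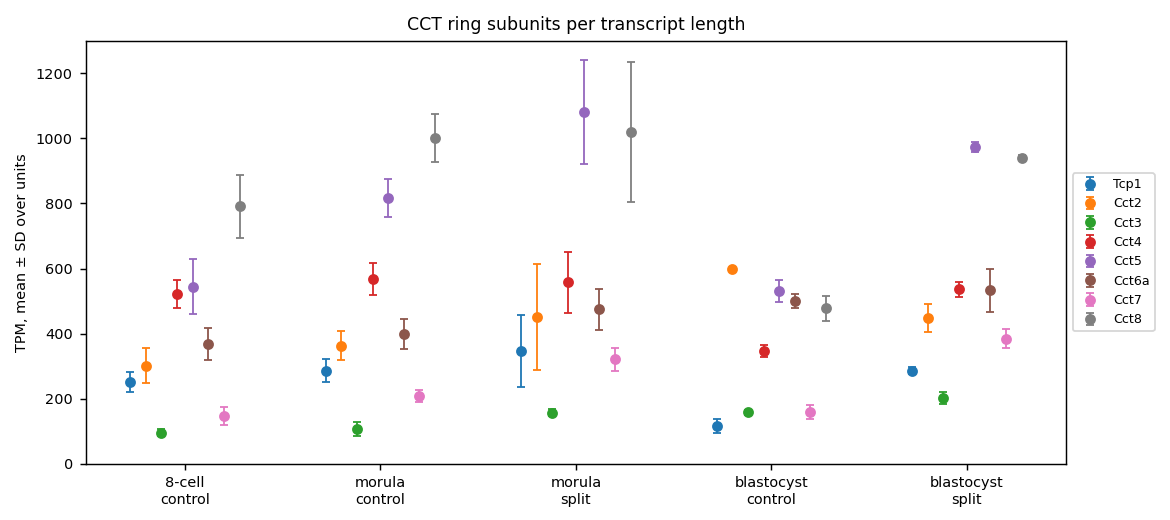
Mean TPM ± SD over units (linear axis from 0) of the 8 ring subunits in the 5 groups, with 1 colour per subunit. Cct8 stands at the top in 8-cell embryos and control morulae and Cct2 in control blastocysts, where Tcp1 is at the bottom.

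Of the 6 prefoldin subunits, 3 fell from the 8-cell stage to the morula and none rose, where 10.7% of all genes fell and 14.3% rose. Pfdn5 went from 558, 534, 422 and 567 CPM to 128, 201, 170.4, 171 and 182 CPM in control morulae, and the other later units lay between 122.5 and 175 CPM. Its drop of 1.61 ± 0.16 had an adjusted p of 3.37e-07. Pfdn6 stood at 428, 603, 608 and 481 CPM, then 158, 252, 220.3, 273 and 211 CPM in control morulae and 125, 117 and 117 CPM in control blastocysts, falling by 1.25 ± 0.17 (adjusted p = 1.16e-05) and again by 0.9 ± 0.19 (adjusted p = 0.00275). Pfdn2 fell at both steps as well, from 356, 255, 330.4 and 369 CPM to 225, 209, 203, 163 and 207 CPM and 99.8, 120.4 and 102 CPM (-0.7 ± 0.17, adjusted p = 0.0034, then -0.91 ± 0.19, adjusted p = 0.00213). With limma, neither second fall was called on the TPM scale or by voom on single embryos. Pfdn1, Pfdn4 and Vbp1, also called prefoldin 3, were not called. No prefoldin subunit was called between split and control embryos, where 1 at the morula and 2 at the blastocyst had an unadjusted p under 0.05 in edgeR, and DESeq2 called none.

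In TPM, Hsp90ab1 was above Hsp90aa1 in every 8-cell embryo and below it in every control morula. Hsp90aa1, the inducible form, stood at 3954, 2764, 2571 and 2135 CPM in 8-cell embryos and at 10110, 10540, 8679, 10560 and 10800 CPM in control morulae. Control blastocysts held 6913, 7643 and 6488 CPM and split blastocysts 9537, 8431 and 8193 CPM. Split morula pairs were at 8437, 8420 and 3976 CPM, and both sisters of the third pair were low, at 3940 and 3982 CPM, where the other 4 split morulae held 8033 to 8559 CPM. The rise to the morula was 1.83 ± 0.19 (adjusted p = 4.91e-07), and neither split comparison was called (-0.55 ± 0.2 at the morula, adjusted p = 0.254, and 0.31 ± 0.22 at the blastocyst, adjusted p = 0.59).

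Hsp90ab1 is the constitutive form. Its units held 3571, 2898, 2897 and 3622 CPM at the 8-cell stage, 4375, 4912, 3496, 4139 and 5100 CPM in control morulae and 5672, 4837 and 3314 CPM in split morulae. Control blastocysts gave 3297, 2944 and 3629 CPM and split blastocysts 3451, 3676 and 3965 CPM, and these 2 groups overlapped. Its small rise to the morula of 0.44 ± 0.15 (adjusted p = 0.0327) ended in 5 of 9 refits without 1 embryo: 8-cell embryos 2 and 3 and control morulae 1, 2 and 5, with adjusted p from 0.0526 to 0.0933. It also ended with limma-voom and with a replicate block. In TPM, the ratio of Hsp90aa1 to Hsp90ab1 was 0.45 to 0.845 at the 8-cell stage and 1.62 to 1.95 in control morulae. It was 0.916 to 1.33 in split morulae, below every control morula, and 1.36 to 1.98 and 1.6 to 2.1 in control and split blastocysts. The plot of HSP90 and its cochaperones shows both genes with 6 partners.

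**Figure D4:**
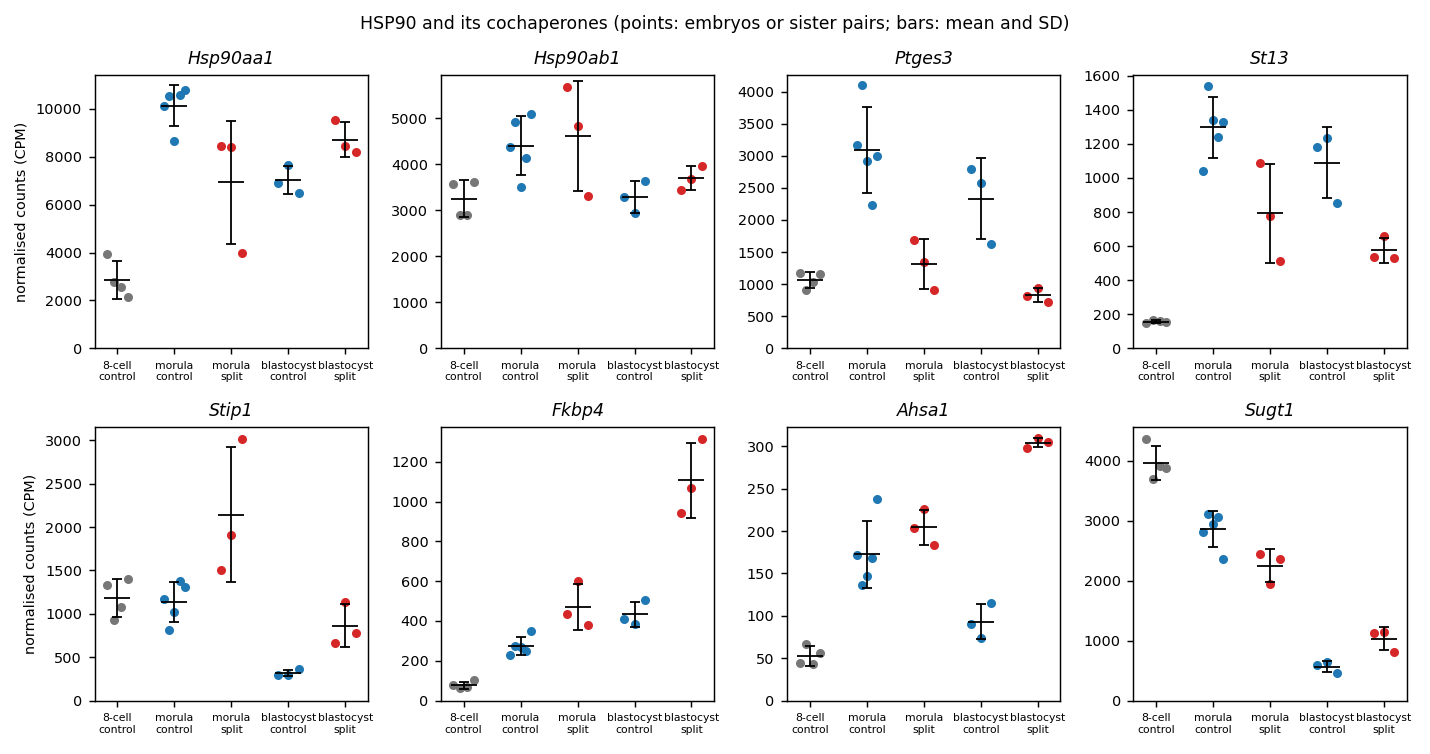
Normalised counts (CPM, linear axis from 0) of Hsp90aa1, Hsp90ab1, Ptges3, St13, Stip1, Fkbp4, Ahsa1 and Sugt1 in the 5 groups, with controls in grey (8-cell) and blue, split embryos in red, points for embryos or sister pairs and bars for mean and SD. Ptges3 is lower in split than in control units at both stages, while Fkbp4 and Ahsa1 reach their highest levels in split blastocysts.

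In the HSP70 family, the constitutive Hspa8 rose to the morula and then fell. Its levels were 2397, 2078, 1873 and 1498 CPM at the 8-cell stage, 4228, 4287, 3603, 4782 and 5885 CPM in control morulae and 5687, 5586 and 3448 CPM in split morulae. Control blastocysts held 1067, 1248 and 1191 CPM and split blastocysts 1472, 2215 and 1974 CPM, so both blastocyst groups lay below all morulae. The changes were 1.22 ± 0.18 to the morula (adjusted p = 2.79e-05), -1.96 ± 0.2 from control morula to control blastocyst (adjusted p = 1.13e-06) and -1.38 ± 0.21 from split morula to split blastocyst (adjusted p = 0.00052). Split blastocyst pairs and control blastocysts did not overlap but were not called apart (0.69 ± 0.21, adjusted p = 0.0659). On the scale of single embryos, 1 split blastocyst of pair 1 held 1087 CPM, below all control blastocysts at 1123 to 1299 CPM. Hspa8 has processed copies in the genome, and how reads with several matches were counted is not stated.

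Hspa14, a ribosome-associated HSP70, followed a like course. It went from 49.9, 81.9, 83.5 and 87.7 CPM at the 8-cell stage to 473, 499, 462, 463 and 394 CPM in control morulae and 124, 126 and 100.1 CPM in control blastocysts. Split morulae held 479, 397 and 513 CPM and split blastocysts 254, 278 and 257 CPM. Every split blastocyst pair was above every control blastocyst (1.17 ± 0.2, adjusted p = 0.00113). The rise to the morula was 2.6 ± 0.18 (adjusted p = 2.24e-09) and the following fall 1.97 ± 0.2 in controls (adjusted p = 6.36e-07) and 0.81 ± 0.2 in split embryos (adjusted p = 0.0208). The last call ended in 5 of 6 refits without 1 unit (all but split morula pair 2, adjusted p 0.0559 to 0.108). The difference between stages in the split effect (1.16 ± 0.27, adjusted p = 0.0306) ended in 12 of 14 such refits (all but control morula 5 and split morula pair 3), with adjusted p up to 0.0988, and in both limma fits and with a replicate block.

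The heat-inducible pair Hspa1a and Hspa1b lies side by side on chromosome 17, and their sequences are shown because reads of such near-identical copies are hard to assign. The windows from 250 bases before to 50 after the start were equal at 296 of 300 bases (98.7%). The last 100 bases before each start are given as above, with GC and CCAAT boxes in capitals.
Hspa1a, chr17:34972157-34972256, minus strand: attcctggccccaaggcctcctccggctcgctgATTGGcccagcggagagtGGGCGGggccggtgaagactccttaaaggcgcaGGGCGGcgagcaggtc
Hspa1b, chr17:34959239-34959338, minus strand: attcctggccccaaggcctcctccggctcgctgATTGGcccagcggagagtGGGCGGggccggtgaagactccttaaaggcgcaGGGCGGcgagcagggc

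Reads of Hspa1a and Hspa1b were few in all groups. Hspa1b had 60, 162, 45 and 107 counts in the 8-cell embryos, 12, 2, 0, 0 and 18 in control morulae and 144, 73 and 98 in the split morula pairs. Control blastocysts had 8, 0 and 2 counts, and all 3 split blastocyst pairs had 0. In CPM these were 1.77, 5.85, 1.88 and 3.61 at the 8-cell stage, 0.704, 0.133, 0, 0 and 1.04 in control morulae, 4.62, 2 and 2.88 in split morulae and 0.596, 0 and 0.122 in control blastocysts. Every split morula pair was above every control morula, but the difference was not called (adjusted p = 0.428). Single split morulae overlapped with the controls, since 1 sister of pair 2 held 0 CPM. Against a floor of 3 counts per unit (0.0754 CPM on average), Hspa1b was at least 42-fold higher in split morulae than in split blastocysts. That step missed the threshold in edgeR (adjusted p = 0.0523), while DESeq2, limma on TPM and limma-voom on single embryos called it (adjusted p = 3.21e-05, 0.00816 and 0.00114).

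Hspa1a gave 47, 27, 0 and 14 counts in the 8-cell embryos, 18, 1, 0, 0 and 2 in control morulae and 20, 1 and 52 in the split morula pairs. In CPM these were 1.39, 0.975, 0 and 0.472, then 1.06, 0.0663, 0, 0 and 0.116 and 0.642, 0.0274 and 1.53. Control blastocysts had 0, 1 and 0 counts and split blastocysts none. The libraries carry no molecular identifiers, so the floor covers counting error only.

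Hsph1, an HSP110 that acts as an exchange factor for HSP70, was the member whose split effect was smaller at the blastocyst. It held 54.2, 91.2, 38.1 and 49.5 CPM at the 8-cell stage, 148, 154, 122, 128 and 151 CPM in control morulae and 361, 218 and 223 CPM in split morulae. Control blastocysts gave 194, 285 and 206 CPM and split blastocysts 87.3, 129 and 149.9 CPM. Split units were thus above the controls at the morula and below them at the blastocyst, without overlap at either stage. Neither split effect was called on its own (0.93 ± 0.26, adjusted p = 0.128, and -0.91 ± 0.29, adjusted p = 0.0875), but their difference was (-1.84 ± 0.39, adjusted p = 0.0167). It lost its call without split morula pair 1 (0.0513), control blastocyst 2 (0.0576) or split blastocyst pair 1 (0.076).

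Hsph1 also rose to the morula in controls (1.27 ± 0.25, adjusted p = 0.000585) and fell from split morula to split blastocyst (-1.13 ± 0.29, adjusted p = 0.0289). The latter call ended without split morula pair 1 or any 1 split blastocyst pair (adjusted p 0.0528 to 0.181), and with the split groups alone. In TPM, Hspa8 exceeded Hsph1 by 7.39 to 9.78 times in control blastocysts and by 21.9 to 30.3 times in split blastocysts.

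Among the exchange factors, Bag1 was lower in split blastocysts, at 78.1, 87.2 and 90.1 CPM against 196, 182 and 198 CPM in control blastocysts (-1.17 ± 0.23, adjusted p = 0.00353). Its levels in split morulae were 113, 109.8 and 148 CPM against 225, 387, 225, 232 and 195 CPM in control morulae, again without overlap, and there the test fell just short (-1.03 ± 0.21, adjusted p = 0.0512), while DESeq2 called it (0.000168). Hspa4, another HSP110, stayed between 76.5 and 207 CPM, and Bag3, which links HSP70 to autophagy, between 3.88 and 69.3 CPM.

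Of the 5 J-domain proteins, 4 fell from control morula to control blastocyst, where 7.46% of all genes fell. None was called between split and control embryos, where 0.126% of all genes at the morula and 4.74% at the blastocyst were called. However, 2 at the morula and 3 at the blastocyst had an unadjusted p under 0.05 in edgeR. DESeq2 called Dnajb1 higher at the blastocyst (1.18, adjusted p = 0.0345). Dnajb6, which keeps aggregation-prone chains soluble, dropped at each step, from 1601, 998, 1387 and 1622 CPM to 616, 585, 499.7, 505 and 668 CPM in control morulae and 309.8, 268 and 261 CPM in control blastocysts. The 8-cell embryos lay above all other units and the control blastocysts below them. Split morulae held 548, 607 and 734 CPM and split blastocysts 393, 407 and 338 CPM. A single split blastocyst of pair 3 held 286.4 CPM, inside the control blastocyst range. The changes were -1.29 ± 0.15 (adjusted p = 2.48e-06) and -1.04 ± 0.17 (adjusted p = 0.000282) in controls and -0.73 ± 0.19 in split embryos (adjusted p = 0.0272). The split call ended in 5 of 6 refits without 1 unit (all but split morula pair 1, adjusted p 0.0544 to 0.161), on the TPM scale and with the split groups alone.

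Dnaja2 stood at 458, 415, 477 and 578 CPM at the 8-cell stage and 248, 274, 226, 242 and 245 CPM in control morulae, with no overlap (-0.97 ± 0.17, adjusted p = 0.000163). Dnaja1, another HSP40, rose to the morula (0.78 ± 0.16, adjusted p = 0.000949) and fell to the control blastocyst (-1.1 ± 0.18, adjusted p = 0.000197). Dnajb1, the heat-inducible HSP40, did the same (1.47 ± 0.31, adjusted p = 0.00123, then -1.52 ± 0.35, adjusted p = 0.0048), although limma-voom did not call its fall, and Dnajc7 fell at the second step only (-1.29 ± 0.24, adjusted p = 0.000964). In split morulae Dnajb1 held 215, 299 and 511 CPM against 189.8, 222, 136, 191 and 179 CPM in controls, and the groups overlapped (0.9 ± 0.32, adjusted p = 0.24).

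Among the cochaperones, St13, which stabilises HSP70 bound to its client, went from 146, 165, 160.3 and 152 CPM at the 8-cell stage to 1043, 1538, 1339, 1243 and 1331 CPM in control morulae, the largest called change of any member (3.06 ± 0.2, adjusted p = 9.3e-10). Control blastocysts held 1181, 1237 and 852 CPM, and split blastocysts were lower without overlap at 536, 662 and 530.1 CPM (-0.92 ± 0.22, adjusted p = 0.0135). That call ended without control blastocyst 1 or 2 or split blastocyst pair 1 or 3 (adjusted p 0.0727 to 0.079). Split morulae were at 1089, 778 and 511 CPM (-0.71 ± 0.2, adjusted p = 0.133).

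Stip1 bridges HSP70 and HSP90 and moved the other way. Its levels were 1335, 930.2, 1082 and 1398 CPM at the 8-cell stage, 1172, 811, 1021, 1375 and 1313 CPM in control morulae and 1510, 1906 and 3020 CPM in split morulae. Control blastocysts fell to 299.6, 296 and 358 CPM, and split blastocysts were above them at 666, 1141 and 785 CPM. The third split morula pair was the highest of all units. Stip1 fell by 1.84 ± 0.24 between control stages (adjusted p = 1.54e-05) and by 1.31 ± 0.25 between split stages (adjusted p = 0.00354), and it was higher by 1.44 ± 0.25 in split than in control blastocysts (adjusted p = 0.00122). Limma-voom on single embryos called neither the fall between control stages nor the difference at the blastocyst, and the fit of the split groups alone did not call the fall between split stages. In TPM, the ratio of St13 to Stip1 was 0.486 to 0.855 in control blastocysts and 0.119 to 0.165 in split blastocysts. The same ratio was 0.182 to 0.388 in control and 0.0335 to 0.145 in split morulae, so the split units were below the controls at both stages.

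Ptges3, the cochaperone p23 that holds HSP90 in its client-bound state, was the only member called between split and control embryos at both stages. Control morulae held 3173, 4099, 2919, 2228 and 3004 CPM and split morula pairs 1694, 1348 and 912 CPM. Control blastocysts held 2800, 2580 and 1624 CPM and split blastocyst pairs 820.1, 945 and 725 CPM. All split units lay below all controls of their stage, by 1.23 ± 0.22 at the morula (adjusted p = 0.0246) and 1.49 ± 0.24 at the blastocyst (adjusted p = 0.000478). The difference between the 2 split effects was not called (-0.27 ± 0.31, adjusted p = 0.822).

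The morula call for Ptges3 ended without control morula 1 (0.0549), 2 (0.0783) or 3 (0.0602) or split morula pair 2 (0.0682) or 3 (0.13), and when only the compared groups were fitted, while the log2 difference stayed between -1.43 and -1.02 in all refits. The blastocyst call held in every refit. At the 8-cell stage Ptges3 stood at 1170, 904, 1033 and 1157 CPM, so that it rose by 1.53 ± 0.2 to the control morula (adjusted p = 6.27e-06) and split morulae overlapped with the 8-cell level. The 100 bases before its start, from RefSeq as above with a GC box in capitals, are shown because of this repeated difference.
Ptges3, chr10:128058882-128058981, plus strand: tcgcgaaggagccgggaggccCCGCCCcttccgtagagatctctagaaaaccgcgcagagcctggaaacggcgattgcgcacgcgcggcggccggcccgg

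Ahsa1, which stimulates the ATPase of HSP90, gave 43.8, 66.9, 42.7 and 56.7 CPM at the 8-cell stage, 171, 136, 147, 169 and 238 CPM in control morulae and 204, 226 and 184 CPM in split morulae. Control blastocysts held 89.9, 74 and 115 CPM and split blastocysts 299, 309.5 and 305 CPM, the latter above all other units. The difference of 1.71 ± 0.25 between split and control blastocysts (adjusted p = 0.000204) was the largest among the members called higher there. Ahsa1 had risen to the morula by 1.72 ± 0.21 (adjusted p = 2.6e-06), and its fall of 0.89 ± 0.22 to the control blastocyst (adjusted p = 0.00967) lost its call without control blastocyst 1 (0.056) or 2 (0.0807), in both limma fits and with a replicate block. The difference between stages in its split effect (1.46 ± 0.33, adjusted p = 0.0231) ended in 7 of 14 refits without 1 unit (split morula pairs 1 and 3, control blastocysts 1 and 2 and each split blastocyst pair), with adjusted p up to 0.077, and on the TPM scale and with a replicate block.

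Sugt1, an HSP90 partner at kinetochores and in ubiquitin ligases, had the deepest called fall of the members between control morula and control blastocyst. It went from 4367, 3687, 3902 and 3875 CPM at the 8-cell stage to 2815, 3117, 2942, 3054 and 2353 CPM in control morulae and 599, 637 and 459 CPM in control blastocysts (-0.47 ± 0.13, adjusted p = 0.0135, then -2.34 ± 0.16, adjusted p = 6.88e-09). Split morulae stood at 2448, 1935 and 2367 CPM and split blastocysts at 1133, 1145 and 817 CPM. The fall between split stages was 1.12 ± 0.17 (adjusted p = 0.000347), and split blastocysts were above control blastocysts by 0.87 ± 0.17 (adjusted p = 0.00262). Its split effect was larger at the blastocyst by 1.21 ± 0.22 (adjusted p = 0.0069). Limma-voom on single embryos called neither of the last 2 differences, and limma on TPM did not call the last.

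Cdc37, which brings kinases to HSP90, was at 149.5, 180.1 and 204 CPM in split and 103, 58.2 and 102 CPM in control blastocysts (1.02 ± 0.29, adjusted p = 0.0492). This call ended whichever 1 of the 6 units was left out (adjusted p 0.0729 to 0.267), with median-ratio factors and in both limma fits.

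Among the immunophilins, which are peptidyl-prolyl isomerases, Fkbp4 rose at every step. Its levels were 75.9, 63.5, 67.1 and 103 CPM at the 8-cell stage, 228, 273, 272, 251 and 347 CPM in control morulae and 409.7, 385 and 506 CPM in control blastocysts. Split morulae held 434, 602 and 378 CPM and split blastocysts 942, 1067 and 1313 CPM, above the controls of their stage without overlap. A single split morula of pair 3 held 304.9 CPM, inside the control morula range. The blastocyst difference was called (1.35 ± 0.23, adjusted p = 0.000775) and the morula difference was not (0.78 ± 0.19, adjusted p = 0.106).

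The rises of Fkbp4 were 1.82 ± 0.19 to the control morula (adjusted p = 4.75e-07), 0.66 ± 0.19 to the control blastocyst (adjusted p = 0.031) and 1.23 ± 0.22 from split morula to split blastocyst (adjusted p = 0.00225). The second ended in 6 of 8 refits, without control morulae 1 to 4 or control blastocyst 1 or 3 (adjusted p 0.0542 to 0.184), and with limma-voom. Ppid, the cyclophilin partner of HSP90, fell between the control stages (-1.24 ± 0.25, adjusted p = 0.00171).

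Ppia, cyclophilin A, stood at 1964, 1851, 1931 and 2059 CPM at the 8-cell stage, 1770, 2058, 1509, 1849 and 1589 CPM in control morulae and 1426, 1499 and 1289 CPM in split morulae. Control blastocysts held 803, 919 and 824 CPM and split blastocysts 2236, 2008 and 2266 CPM. All control blastocysts were below every unit of the other groups. The difference between split and control blastocysts was 1.35 ± 0.14 (adjusted p = 1.26e-05), the fall between control stages -1.05 ± 0.13 (adjusted p = 9.23e-06) and the rise between split stages 0.63 ± 0.14 (adjusted p = 0.0101). The rise ended without split blastocyst pair 1 (0.0565) or 3 (0.0699) and with the split groups alone. The split effect was larger at the blastocyst by 1.68 ± 0.19 (adjusted p = 0.000171), the lowest adjusted p of the members in this test. Its direction differed between the stages: split morula pairs lay below all control morulae, and split blastocyst pairs above all control blastocysts. The morula difference was not called. Ppia has many processed copies, and the handling of reads with several matches is not stated.

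Hspb1, a small heat shock protein that binds unfolding proteins without ATP, was at 15.6, 13.9, 22.3, 26.6 and 41.8 CPM in control morulae and 55, 47.8 and 370.3 CPM in split morulae. In blastocysts the levels were 26.3, 38.5 and 44.7 CPM in controls and 222, 144 and 226 CPM in split pairs. Split units lay above controls at both stages without overlap, but neither difference was called (2.71 ± 0.64, adjusted p = 0.0938, and 2.43 ± 0.76, adjusted p = 0.0804). Single split morulae of pairs 1 and 2 went down to 31.9 and 30.3 CPM, inside the control morula range. The highest morula value came from 1 sister of the third split pair at 662.8 CPM, while the other held 70.8 CPM. When only the blastocyst groups were fitted, Hspb1 was called (2.37, adjusted p = 0.00102).

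Hsf1, the heat shock factor, was low in all groups, between 3.6 and 42.6 CPM, and was not called. Split blastocyst pairs stood above the controls without overlap, at 36.9, 42.6 and 38.6 CPM against 7.74, 23 and 22.6 CPM (log2 1.15). Split morulae at 33, 13.1 and 21 CPM overlapped with control morulae at 3.6 to 16.8 CPM (log2 1.27, unadjusted p under 0.05 in edgeR). The plot of heat-inducible genes by embryo shows these genes with the sisters joined.

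**Figure D5:**
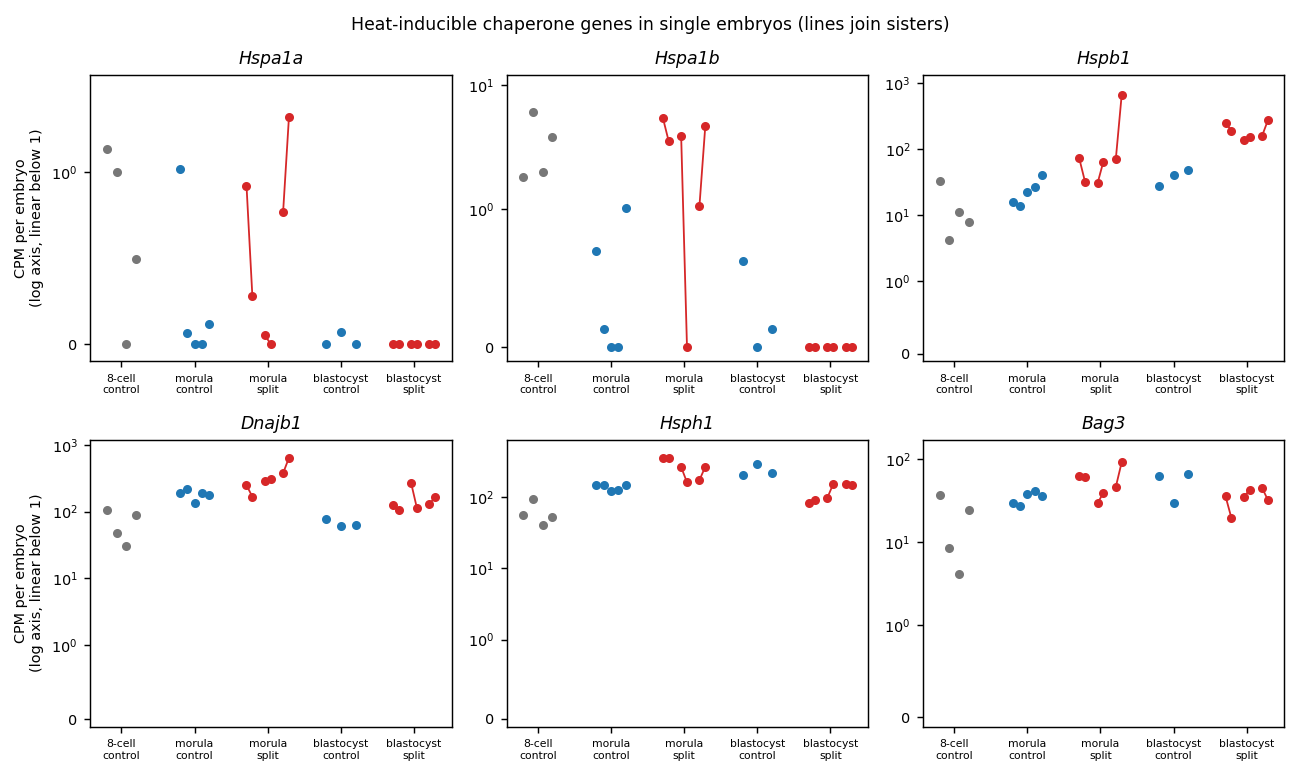
CPM per embryo (log axis, linear below 1) of Hspa1a, Hspa1b, Hspb1, Dnajb1, Hsph1 and Bag3 in the 5 groups, with 1 point per embryo and a line between sisters. All 6 split blastocysts lie at 0 for Hspa1a and Hspa1b, and 1 split morula reaches 662.8 CPM of Hspb1.

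The mitochondrial pair Hspd1 and Hspe1 is transcribed in opposite directions from a shared promoter. In RefSeq on GRCm38.p6, 215 bases lie between the Hspe1 start and 1 of the 2 annotated Hspd1 starts on chromosome 1, while the other Hspd1 start lies past that of Hspe1. The stretch is shown whole because it precedes both genes, on the Hspe1 strand, with the overlapping matches to the heat shock element in capitals.
Hspd1 and Hspe1, chr1:55087933-55088147, plus strand: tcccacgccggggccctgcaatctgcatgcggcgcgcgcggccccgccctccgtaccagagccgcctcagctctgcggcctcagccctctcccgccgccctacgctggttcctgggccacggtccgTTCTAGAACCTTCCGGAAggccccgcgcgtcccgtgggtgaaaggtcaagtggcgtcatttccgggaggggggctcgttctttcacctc

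The heat shock element was searched as GAA, TTC and GAA with 2 free bases between each, on both strands, in the windows from 250 bases before to 50 after each start. It occurred in 0.662% of all genes with a window and in 4 of the 34 members with a window: Hspd1, Hspe1, Dnajb6 and Hsph1. The matches of Hspd1 and Hspe1 are those in the shared stretch above. The stretches around the matches in Dnajb6 and Hsph1 are given for comparison, and the Hsph1 match lies after the start.
Dnajb6, chr5:29735844-29735872, plus strand: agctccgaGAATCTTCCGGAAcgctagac
Hsph1, chr5:149636287-149636305, minus strand: gcagaTTCTGGAAAGTTCt
These 4 genes differed in their course: Hspd1 and Hsph1 rose to the morula, Dnajb6 fell and Hspe1 was not called. Windows of the other 8 members (Cct4, Hsf1, Hsp90aa1, Hsp90ab1, Hspa8, Pfdn1, Ppid and St13) were not used here.

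Hspd1 stood at 103, 111, 189 and 116 CPM at the 8-cell stage, 269.9, 208, 285, 261 and 188 CPM in control morulae and 445, 400.1 and 279.5 CPM in split morulae. Control blastocysts gave 311, 287 and 307 CPM and split blastocysts 369, 402 and 373 CPM. The rise to the control morula was called (0.9 ± 0.19, adjusted p = 0.00154), and the higher level in split blastocysts was not (0.34 ± 0.23, adjusted p = 0.569).

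Hspe1 held 145, 232, 200 and 79.1 CPM, then 182, 209.8, 322, 191 and 171 CPM in control morulae and 198, 206 and 83.6 CPM in split morulae. Control blastocysts gave 336, 234 and 259 CPM and split blastocysts 352, 257 and 364 CPM, and no step was called. In TPM the ratio of Hspd1 to Hspe1 was 1.08 to 1.86 in split morulae, above all control morulae at 0.494 to 0.829. It was 0.517 to 0.684 in control and 0.58 to 0.86 in split blastocysts, which overlapped.

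Sister embryos allowed the members to be compared within an origin. The median absolute log2 difference over the 42 members was 0.248 to 0.59 between sister morulae and 0.261 to 0.705 between split morulae of different pairs. For split blastocysts it was 0.185 to 0.341 between sisters and 0.129 to 0.314 between embryos of different pairs. Control morulae differed from each other by 0.136 to 0.282 and control blastocysts by 0.195 to 0.278. Sisters thus overlapped with split embryos of other origin. The wide distances among split morulae came with pair 3: distances to other pairs that involve it were 0.428 to 0.705 and those between pairs 1 and 2 were 0.261 to 0.335, while its own sisters differed by 0.59.

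Related genes that are no members were read from lists taken for comparison. Of 18 further HSP90 cochaperones, 4 (22.2%) fell from control morula to control blastocyst, where 7.46% of all genes fell, led by Ruvbl2 (-1.26 ± 0.21, adjusted p = 0.000314), Ruvbl1 (-1.07 ± 0.25, adjusted p = 0.00691) and Chordc1 (-1.05 ± 0.26, adjusted p = 0.00889). In split against control blastocysts 4 (22.2%, against 3.42% of all genes) were higher, led by the ubiquitin ligase Stub1 (2.03 ± 0.38, adjusted p = 0.00252), Ruvbl2 (1.8 ± 0.23, adjusted p = 7.47e-05) and Nudc (1.55 ± 0.22, adjusted p = 0.000161), and none was lower. Txndc9, a cofactor of the CCT ring, fell to the control blastocyst (-1.92 ± 0.16, adjusted p = 8.15e-08) and was higher in split blastocysts (0.85 ± 0.17, adjusted p = 0.00358). Its split effect was larger at the blastocyst than at the morula by 1.12 ± 0.23 (adjusted p = 0.0124).

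Actin and tubulin genes, whose proteins the ring folds, rose at both control steps where they were called. Of 12, 7 (58.3%) rose from the 8-cell stage to the morula, where 14.3% of all genes rose, led by Actb (4.65 ± 0.5, adjusted p = 8.36e-06), Tubb2a (4.02 ± 0.98, adjusted p = 0.00441) and Actg1 (3.73 ± 0.63, adjusted p = 0.000399). Between control morula and control blastocyst 4 (33.3%, against 3.12% of all genes) rose and none fell, led by Tuba1a (3.66 ± 0.89, adjusted p = 0.00827), Tubb5 (2.73 ± 0.48, adjusted p = 0.00099) and Tuba1b (2.49 ± 0.6, adjusted p = 0.0087). None was called between split and control blastocysts, which reads as no result beside the 4.74% of all genes called there. In that comparison 1 had an unadjusted p under 0.05 in edgeR.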

How the data were processed

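Single-embryo RNA-seq libraries were grouped by the stage and origin in the labels. The submitters' processing notes name HISAT2 and featureCounts beside FastQC, MultiQC, cutadapt, edgeR and the build GRCm39, without versions. The annotation release, the strand setting and the handling of reads with several matches are not given in the sources used here, so counts of near-identical copies (Hspa1a and Hspa1b, Ppia, Hspa8, Hsp90ab1, Hspd1, Hspe1) and of overlapping genes are uncertain. The deposited table of read counts, made by the authors, held whole numbers for 37229 symbols. The deposited TPM values, scaled for transcript length and library by the authors, covered 15625 genes.

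Sister counts were summed, which gave 18 units. Genes were kept by filterByExpr (15875), scaled with TMM factors and tested two-sided in 1 robust edgeR quasi-likelihood fit of the 5 groups (13 residual degrees of freedom). Adjusted p-values are edgeR's Benjamini-Hochberg values over all 15875 genes, called under 0.05 with no minimum fold, unless another tool is named. Levels are CPM, log2 changes are given ± standard error, and TPM was tested with limma on log2(TPM + 1). Levels and distances of single embryos use scaling factors computed over single embryos, so they are not on the same scale as the unit levels. Ratios and sums between genes use TPM. Tools were edgeR 4.0.16, DESeq2 1.42.0 and limma 3.58.1 under R 4.3.3. Counts for split against control blastocysts were also simulated over 15875 genes. In them 100 genes changed by 1 on the log2 scale and 100 by 2, drawn at random above a low mean level. Of these, 6% and 37% were recovered, and 2.27% of calls were false. These rates were not measured for the members, whose levels and spread differ from those of such a draw. Precision is limited by 3 to 5 units a group.

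The members and lists were chosen with earlier results of these data known. Values in every unit were given for up to 6 called members per comparison and direction by absolute log2 change, and for the pairs of HSP90, HSP70 and the mitochondrial chaperonin. Up to 3 called genes per further list, direction and comparison could be named. Other members are given by range or fold change. Alternatives were DESeq2, median-ratio factors, no count filter, limma on TPM, single embryos with their origin as a random effect (limma-voom), only the compared groups, a replicate block and leaving out each unit.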

Additional observations from a re-analysis of the deposited data

Results flagged for a closer look

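Single units stood far from the rest of their group in 7 of 84 combinations of a member and a group of 4 or 5 embryos, by Dixon's test of the gap to the nearest embryo. Chance alone flags about 1 in 20 groups, or 4.2 here. Control morula 2 was low in Cct4 at 944 CPM and high in Bag1 at 387 CPM and Dnajc7 at 241 CPM. Control morula 1 was high in Hspa1a at 1.06 CPM, which rests on 18 counts, and control morula 3 was high in Hspe1 at 322 CPM. Among the 8-cell embryos, the first was low in Hspa14 at 49.9 CPM and the third high in Hspd1 at 189 CPM.

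The split effect differed between the blastocyst and the morula, by edgeR's test of the difference itself, for 10 members. It was larger at the blastocyst by 1.68 (log2) for Ppia, 1.47 for Tcp1, 1.46 for Ahsa1, 1.38 for Cct8, 1.21 for Sugt1, 1.16 for Hspa14, 1.08 for Cct7, 1.07 for Cct4 and 0.9 for Cct5. For Hsph1 it was smaller, at -1.84.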

How the results depend on the processing

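No call of a member changed direction under any alternative. For split against control morulae, where 1 member was called, DESeq2 called 8, the fit without a count filter 3, limma-voom on single embryos 4 (all lower, with the median of all genes at -0.36) and the fit of the compared groups 0, and leaving out 1 unit gave 0 to 3. Calls over all genes moved too, from 20 to 832, 69, 159 and 4 in these 4 fits. From split morula to split blastocyst the 8 calls became 17 with limma-voom (6 higher, median of all genes 0.51) and 4 with the compared groups alone, and 4 to 8 when 1 unit was left out (4 without split blastocyst pair 1 or 3, 5 without pair 2). Over all genes the 662 calls there became 2903 with limma-voom and 413 with the compared groups alone. For the difference between split effects the 10 calls became 3 on the TPM scale (2 larger, 1 smaller, median of all genes -0.23) and 6 to 9 when 1 unit was left out (6 without split morula pair 1, control blastocyst 1 or split blastocyst pair 1). Over all genes the 260 calls of this test became 114 on the TPM scale. The cause was not tested, beyond the fewer units in the refits. The other 3 comparisons stayed within 1.5 times their counts, at 19 to 24, 13 to 21 and 13 to 21 calls. Over all genes their calls moved more. From the 8-cell stage to the morula the 3960 calls became 3159 to 5198. Between control morula and control blastocyst the 1680 calls became 1083 to 3520, and for split against control blastocysts the 752 became 408 to 2037.

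The direction of calls moved by over 10 percentage points with limma-voom for the rise to the morula (14 higher and 10 lower, against 14 and 6), the split blastocysts (9 and 4, against 12 and 3) and the split stages (6 and 11, against 2 and 6), and with TPM for the control blastocyst (6 and 14, against 1 and 18) and the difference between split effects (2 and 1, against 9 and 1). For split against control morulae, with 0 higher and 1 lower, it moved with DESeq2 (4 and 4) and with no count filter or without split morula pair 1 (1 and 2 each), and for the split stages without split blastocyst pair 2 (2 and 3). With a replicate block the counts were 19, 18, 1, 15, 8 and 7, in the order of the report, but same-numbered units did not deviate together (13 pairs, r -0.03 to 0.04), so the numbers do not pair the samples. Depth limits Hspa1a and Hspa1b, which had 0 counts in several units.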

Other observations

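Chaperones of other compartments changed as well. Of 12 chaperones of the endoplasmic reticulum, 9 rose from the 8-cell stage to the morula and 1 fell (75% and 8.33%, against 14.3% and 10.7% of all genes), led by Hyou1 (2.86 ± 0.4, adjusted p = 1.64e-05), Pdia4 (2.6 ± 0.26, adjusted p = 2.47e-07) and Canx (2.59 ± 0.2, adjusted p = 1.34e-08). From control morula to control blastocyst, where 3.12% of all genes rose and 7.46% fell, 4 rose, led by Calr (2.41 ± 0.23, adjusted p = 4.92e-07), and 2 fell, among them the J-domain protein Dnajb9 (-3.35 ± 0.42, adjusted p = 1.61e-05). From split morula to split blastocyst, where 1.22% of all genes rose, 5 rose, Calr among them (2.1 ± 0.27, adjusted p = 0.000113), and Dnajb9 fell (-3.43 ± 0.44, adjusted p = 0.000126). In split against control blastocysts, where 3.42% of all genes were higher and 1.32% lower, 3 protein disulfide isomerases were higher, Pdia6 (1.17 ± 0.27, adjusted p = 0.0116), Pdia4 (1.12 ± 0.29, adjusted p = 0.0271) and Pdia3 (1 ± 0.24, adjusted p = 0.0152), while the membrane chaperone Canx was lower (-0.86 ± 0.23, adjusted p = 0.0315).

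Of 8 mitochondrial chaperones and proteases beside Hspd1 and Hspe1, 7 (87.5%, against 14.3% of all genes) rose to the morula, led by Dnaja3 (1.97 ± 0.24, adjusted p = 3.01e-06), Clpp (1.77 ± 0.18, adjusted p = 2.86e-07) and the mitochondrial HSP90 Trap1 (1.6 ± 0.32, adjusted p = 0.000832). The protease subunit Clpx fell to the control blastocyst (-1.98 ± 0.26, adjusted p = 1.72e-05) and between the split stages (-1.67 ± 0.27, adjusted p = 0.000959). Clpp and the exchange factor Grpel1 were higher in split than in control blastocysts (1.38 ± 0.21, adjusted p = 0.000375, and 0.87 ± 0.16, adjusted p = 0.0021).

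Of 22 further HSP70, small heat shock and J-domain genes of the cytosol, 6 (27.3%, against 14.3% of all genes) rose to the morula, led by the small heat shock genes Cryab (4.25 ± 1.15, adjusted p = 0.014) and Hspb8 (4.2 ± 1.22, adjusted p = 0.0172) and the factor Hsf2 (2.54 ± 0.3, adjusted p = 1.93e-06), and 1 fell. In split blastocysts 1 was higher and 1 lower, near the shares over all genes. All these p-values are edgeR's, adjusted over all tested genes.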
